A study of Mus musculus with 8 samples.

Results

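The genes described here are 10 products of enteroendocrine cells, the hormone-secreting cells scattered through the gut lining: the peptide hormones Gcg, Pyy, Insl5, Sct, Cck, Nts and Sst, the granins Chga and Chgb, and Tph1, the enzyme that starts serotonin synthesis. They were chosen by gene symbol, and each had 1 row (1 probe identifier) among the 18097 rows of an Illumina MouseRef-8 v2.0 BeadChip, which stand for 16420 named genes. Total RNA came from the colonic mucosa of 4 male mice aged 157 days, of a mixed 129Sv/B6/D2 strain, and every mouse carried Dnmt1LO/LO, the controls included. The 2 control mice carried nothing further, and the 2 transgenic mice also carried TgVillacIGY. The series compared colon with and without inhibition of Dnmt1, the enzyme that copies DNA methylation onto the new strand after replication. The labels name neither the promoter of the transgene nor the cells that express it. RNA of every mouse was run on 2 arrays. The mouse is the replicate, and each genotype has n = 2. The labels do not say whether the mice of a genotype were littermates.

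Enteroendocrine cells arise from crypt progenitors that switch on the transcription factor Neurog3, and they store peptides in dense-core granules together with granins. In the colon, L cells make proglucagon (Gcg, the precursor of GLP-1 and GLP-2), peptide YY and, distally, insulin-like peptide 5. Enterochromaffin cells make serotonin and are rich in chromogranin. Secretin, cholecystokinin and neurotensin are best known from the small intestine, and somatostatin from D cells throughout the gut. In whole mucosa, fewer cells of a type and less RNA per cell cannot be told apart.

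Levels below are log2 values after background correction with an offset and quantile normalization, and a row counts as detected on an array at a detection p under 0.01. Control arrays had mean raw signals of 866 to 1080 and transgenic arrays of 698 to 1019, with the 2 dimmest arrays both from transgenic mouse 1. The Dnmt1 row was at 9.41 and 9.18 in the control mice and at 7.44 and 6.75 in the transgenic mice, a change that did not pass over all rows (limma, adjusted p = 0.129). Transgenic mice stood further apart than control mice, with a median difference of 0.30 against 0.15 over the 6982 rows tested. Of 9 colonocyte markers on the array, 8 were tested, among them Krt8, Krt19 and Cdx2, and the chloride exchanger gene Slc26a3 was detected on no array. All 7 goblet cell markers on the array were tested, Clca1, Spink4 and Zg16 being the brightest, with a summed level of 17.73 to 17.84 in control mice and 17.72 to 17.84 in transgenic mice. Of the 10 hormone, granin and Tph1 rows, 7 were detected on all 8 arrays. The other 3 were Cck, detected on 0 of 4 control and 4 of 4 transgenic arrays, Nts, detected on 3 and 1, and Tph1, detected on 4 and 2.

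DNA methylation acts on the C of CG pairs, so the 250 bases before the start of the hormone genes that the comparisons turn on are shown with each CG in capitals. They are RefSeq sequences of build GRCm38.p6, 5′ to 3′ on the gene's strand, for the outermost start where the table lists more than 1. Gcg is at chr2:62483654-62483903, Pyy at chr11:102107833-102108082, Insl5 at chr4:103027272-103027521, Sct at chr7:141279134-141279383 and Cck at chr9:121495695-121495944, all on the minus strand.
Gcg: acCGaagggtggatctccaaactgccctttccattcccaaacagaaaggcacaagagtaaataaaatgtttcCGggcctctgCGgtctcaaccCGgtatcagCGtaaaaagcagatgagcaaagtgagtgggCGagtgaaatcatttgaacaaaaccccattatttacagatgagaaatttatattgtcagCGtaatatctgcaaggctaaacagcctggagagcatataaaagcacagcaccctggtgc
Pyy: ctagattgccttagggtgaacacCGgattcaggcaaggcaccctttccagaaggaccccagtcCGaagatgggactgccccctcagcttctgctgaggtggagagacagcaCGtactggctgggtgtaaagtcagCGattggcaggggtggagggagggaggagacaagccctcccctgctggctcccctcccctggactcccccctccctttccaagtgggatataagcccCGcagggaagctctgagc
Insl5: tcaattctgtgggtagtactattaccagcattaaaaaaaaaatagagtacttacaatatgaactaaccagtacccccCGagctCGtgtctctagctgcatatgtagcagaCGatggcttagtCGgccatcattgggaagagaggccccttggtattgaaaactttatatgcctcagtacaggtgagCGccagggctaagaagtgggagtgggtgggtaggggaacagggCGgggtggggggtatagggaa
Sct: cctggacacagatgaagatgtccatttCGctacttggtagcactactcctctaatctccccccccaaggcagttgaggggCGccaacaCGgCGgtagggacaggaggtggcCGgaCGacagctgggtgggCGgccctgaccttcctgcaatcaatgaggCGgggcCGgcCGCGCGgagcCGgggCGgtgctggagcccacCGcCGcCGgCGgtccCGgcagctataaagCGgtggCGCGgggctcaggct
Cck: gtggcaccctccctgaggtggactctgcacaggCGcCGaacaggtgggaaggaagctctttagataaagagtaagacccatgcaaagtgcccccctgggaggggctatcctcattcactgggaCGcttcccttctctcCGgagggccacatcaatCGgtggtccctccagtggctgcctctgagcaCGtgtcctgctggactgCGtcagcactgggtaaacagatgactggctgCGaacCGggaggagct
The Sct stretch held 22 CG pairs, and 14.8% of the 32851 starts in the table held as many or more; the Cck stretch held 9. Gcg held 7, Pyy 5 and Insl5 6, near the median of 6 over all starts. The second listed starts of Pyy and Insl5 held 7 and 3. Among the genes not shown, Chgb held 26, more than Sct, and 9.59% of starts held as many or more. Chga held 16, Sst 8 and Nts 2, and Tph1 held 5 at its outermost start and 19 at the second. The letters TATAAA, read on both strands, were found before Gcg, Insl5 and Sct and before 12.4% of all starts. Methylation was not measured in these arrays.

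A second short motif is shown because it occurs before some of these genes and not before others. It is the half-site TGACG (or CGTCA on the other strand) of the cyclic AMP response element, whose full form TGACGTCA holds both half-sites in overlap. Each stretch gives the match in capitals with 10 bases on each side.
Chga: ggcggtcctaTGACGtaatttcctg
Chgb: ggctgctccgTGACGTCAgggctgagcg
Tph1: aatgtgcgtgTGACGctgcgtgtgc
Sst: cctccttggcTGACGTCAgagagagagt
Cck: tgctggactgCGTCAgcactgggta
Nts: tagggaagatCGTCActttccatca
Their positions are chr12:102554887-102554911 (Chga, plus strand), chr2:132781560-132781587 (Chgb, plus strand), chr7:46672559-46672583 (Tph1, minus strand, outermost start), chr16:23890875-23890902 (Sst, minus strand), chr9:121495727-121495751 (Cck, minus strand) and chr10:102490570-102490594 (Nts, minus strand). A half-site was found in the 250 bases before 6 of the 10 genes and before 17.8% of all starts, and the full form before Chgb and Sst and before 1.55% of all starts. The matches are descriptions of letters and not tested binding sites.

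The L cell hormones Gcg, Pyy and Insl5 were higher in transgenic mouse 1 than in the other 3 mice, and after normalization they lay below both control mice in transgenic mouse 2. The genotypes therefore overlapped for all 3, and their means did not separate. All 3 put the mice in one order, from transgenic mouse 2 through control mouse 1 and control mouse 2 to transgenic mouse 1, which 8.08% of all rows tested share. This grouping was made after the values were seen and carries no test.

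Insl5 (ILMN_2608858), a relaxin-family peptide that signals through the receptor Rxfp4, had raw signals of 2639 and 2573 on the arrays of control mouse 1 and 5688 and 3542 on those of control mouse 2. They were 6282.5 and 7025 for transgenic mouse 1, and 2267.5 and 2115 for transgenic mouse 2. Both arrays of transgenic mouse 1 were thus above every other array before any normalization. The normalized levels were 11.25 and 12.02 in control mice 1 and 2 and 13.06 and 10.85 in transgenic mice 1 and 2. The transgenic mice were 4.63-fold apart, a gap exceeded by 1.07% of all rows tested, whereas the 2 arrays of a mouse differed by at most 0.32 on the log2 scale. The control mice were 1.71-fold apart, with mouse 2 higher. Between genotypes the change was 0.33 ± 0.77 (SE; 95% interval -1.69 to 2.34), which did not pass (limma, adjusted p = 0.914). Leaving out transgenic mouse 1 gave -0.78 and leaving out transgenic mouse 2 gave 1.43. Without control mouse 1 the change was -0.06, and without control mouse 2 it was 0.71.

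Pyy (ILMN_1259546), whose peptide slows gut transit and curbs appetite, had raw signals of 5926.5 and 5732 in control mouse 1, 9365 and 6139 in control mouse 2, 11658 and 13141.5 for transgenic mouse 1, and 5554 and 5304 for transgenic mouse 2. Its normalized levels were 12.44 and 12.78 in control mice and 13.97 and 12.22 in transgenic mice. Transgenic mouse 1 was 3.37-fold above transgenic mouse 2, a gap exceeded by 2.11% of rows. The change between genotypes was 0.48 ± 0.60 (SE; 95% interval -1.07 to 2.04) and did not pass (limma, adjusted p = 0.834). It was -0.39 without transgenic mouse 1, 0.31 without control mouse 1 and 1.36 without transgenic mouse 2. The fit without transgenic mouse 2 takes its spread from the control mice only.

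Gcg (ILMN_1247347) had raw signals of 2456 and 2679 in control mouse 1, 3023 and 2378 in control mouse 2, 4380.5 and 5239.8 for transgenic mouse 1, and 2804 and 2642 for transgenic mouse 2. On this scale the arrays of transgenic mouse 2 were within the range of the control arrays. The raw mean of that mouse, 2722.9, was just above those of the control mice, 2567.2 and 2700.4. After normalization the control mice were nearly level for Gcg, at 11.22 and 11.27. Transgenic mouse 2 was close to them at 11.18, so only transgenic mouse 1, at 12.63, stood apart. The transgenic mice were 2.73-fold apart, a gap exceeded by 3.58% of rows. The change was 0.66 ± 0.50 (SE; 95% interval -0.63 to 1.95) and did not pass (limma, adjusted p = 0.731). Leaving out transgenic mouse 1 gave -0.07, and leaving out transgenic mouse 2 gave 1.38, with the spread from the control mice alone.

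**Figure D1:**
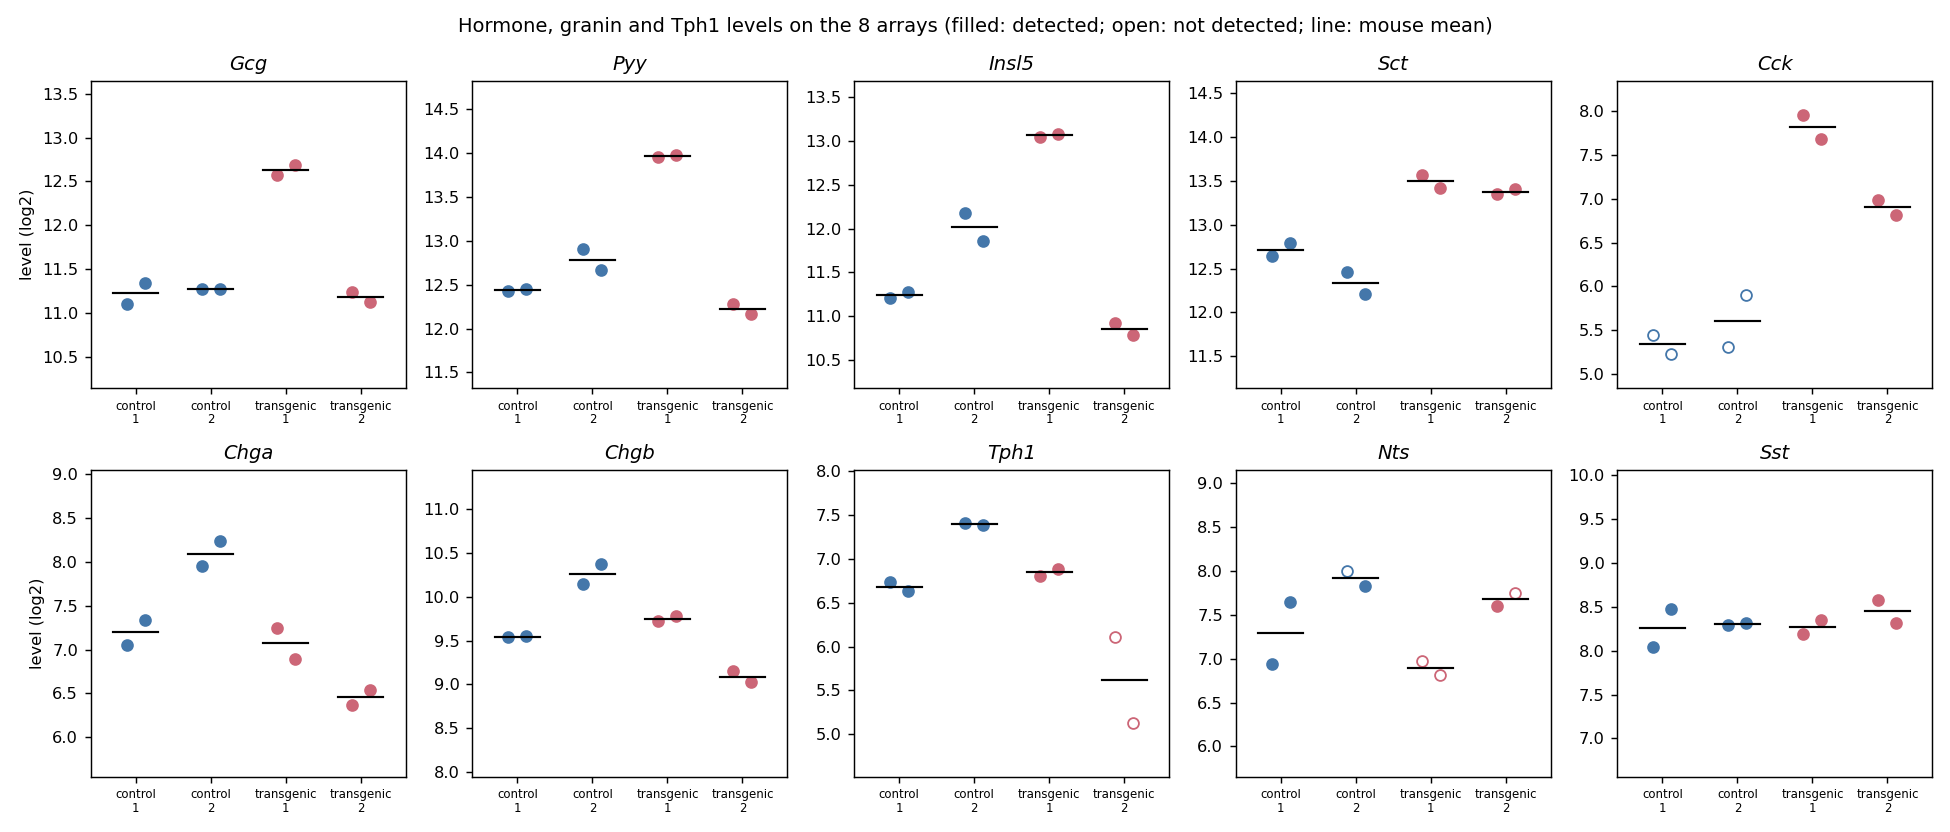
Normalized level (log2, y axis, 3.5 units high in each panel) of each gene on the 2 arrays of each mouse (x axis); filled points were detected, open points were not, and bars are mouse means. Transgenic mouse 1 is highest for Gcg, Pyy and Insl5, both transgenic mice are above both control mice for Sct and Cck, and control mouse 2 is highest for Chga, Chgb and Tph1.

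For secretin and cholecystokinin, neither transgenic mouse overlapped the control mice: both lay higher, in raw signal too. As normalized here they were the 2 of 10 genes with this separation upward, where 21.7% of all rows tested show it. Cck entered the test through the transgenic arrays alone and had to differ, so its place in this count is no result. Neither passed the threshold.

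Sct (ILMN_2592834), the hormone that calls forth bicarbonate from the pancreas, had raw signals of 6983 and 7213 in control mouse 1, 6953 and 4479 in control mouse 2, 8914.5 and 8725.5 for transgenic mouse 1, and 11592 and 12018.5 for transgenic mouse 2. All 4 transgenic arrays were above all 4 control arrays. On the log2 scale, control mice averaged 12.52 ± 0.27 and transgenic mice 13.44 ± 0.08 (SD, n = 2). The change was 0.91 ± 0.21 (SE; 95% interval 0.38 to 1.45, not adjusted for the number of rows), or 1.88-fold, with limma adjusted p = 0.318. The transgenic mice were only 1.08-fold apart, and 79.6% of rows differed more between them. Of the 10 genes, Sct had the smallest difference between transgenic mice as normalized here (0.12). With background from all rows those of Sst (-0.05), Chga (0.05), Tph1 (0.08) and Nts (-0.10) were smaller in size than that of Sct (0.12). In raw signal the order of the transgenic mice turned, with mouse 2 higher.

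Cck (ILMN_1252990), the hormone that contracts the gallbladder, was dim. Its raw signals were 109.7 and 104 in control mouse 1 and 115 and 121 in control mouse 2, none of them detected. They were 258 and 245 for transgenic mouse 1, and 220.3 and 211 for transgenic mouse 2, all detected, so the row entered the test through the transgenic arrays alone and had to differ. The measured means were 5.47 in control mice and 7.36 in transgenic mice. Against the lowest detected level on each control array, Cck was at least 1.90-fold higher in transgenic mice. Transgenic mouse 1 was 1.89-fold above transgenic mouse 2. The fitted change was 1.89 (log2, limma adjusted p = 0.229). It rests on the background correction: it was 0.15 when all rows gave the background and 1.09 in the series matrix.

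The granins and Tph1 ran differently from the L cell hormones. All 3 were highest in control mouse 2 and lowest in transgenic mouse 2, a combination seen in 10.4% of all rows tested. Their changes between genotypes were negative and none passed. As with the L cell hormones, the grouping was made after the values were seen.

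Chga (ILMN_2814927), an acidic protein of dense-core granules, had raw signals of 206.5 and 229 in control mouse 1, 352 and 338 in control mouse 2, 187 and 172 for transgenic mouse 1, and 169 and 188 for transgenic mouse 2. All transgenic arrays were below all control arrays on this scale. Its levels were 7.20 and 8.09 in control mice and 7.07 and 6.46 in transgenic mice, so it was the 1 gene of the 10 whose transgenic mice both lay below the control mice, where 20.9% of rows show this. With median scaling the groups overlapped. The change was -0.88 ± 0.39 (SE; 95% interval -1.89 to 0.12), with limma adjusted p = 0.630. It was -0.12 with background from all rows, -0.43 without control mouse 2, -0.57 without transgenic mouse 2 and -1.33 without control mouse 1. The control mice alone were 1.86-fold apart, more than in all but 2.29% of rows.

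Chgb (ILMN_2679377), the other granin, had raw signals of 874 and 816 in control mouse 1, 1373.5 and 1285 in control mouse 2, 698 and 790.4 for transgenic mouse 1, and 728 and 691 for transgenic mouse 2. All transgenic arrays were below all control arrays on this scale. After normalization the levels were 9.54 and 10.26 in control mice and 9.75 and 9.09 in transgenic mice, which overlap. The change was -0.48 ± 0.35 (SE; 95% interval -1.40 to 0.44; limma, adjusted p = 0.728). It was -0.12 without control mouse 2, -0.15 without transgenic mouse 2, -0.84 without control mouse 1 and -0.81 without transgenic mouse 1.

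Tph1 (ILMN_2485639), the rate-limiting enzyme of serotonin synthesis outside the nervous system, had raw signals of 178 and 169 in control mouse 1, 265 and 219 in control mouse 2, 157 and 172 for transgenic mouse 1, and 152 and 107 for transgenic mouse 2. The row was not detected on either array of transgenic mouse 2. Its levels were 6.68 and 7.40 in control mice and 6.85 and 5.62 in transgenic mice, and the 2 arrays of transgenic mouse 2 themselves differed by 0.98. The gap between transgenic mice, 1.23, shrank to 0.08 when the background came from all rows and to 0.68 in the series matrix. The change was -0.81 ± 0.49 (SE; 95% interval -2.08 to 0.46; limma, adjusted p = 0.690). It was -0.06 with background from all rows, -0.47 with series matrix values, -0.19 without transgenic mouse 2, -0.45 without control mouse 2 and -1.42 without transgenic mouse 1. Mast cells can also express Tph1. Of 11 mast cell markers on the array 3 were tested. The protease gene Mcpt1 was at 8.02 and 5.71 in control mice and 11.56 and 7.0 in transgenic mice, highest in transgenic mouse 1. The chymase gene Cma1 was at 7.63 and 8.16 in control mice and 7.79 and 5.70 in transgenic mice, which is the order of the mice for Tph1. Hdc, the enzyme of histamine synthesis, was detected on 0 of 4 control and 4 of 4 transgenic arrays. Like Cck, it entered the test through the transgenic arrays alone and had to differ. Hdc was at least 1.89-fold higher in transgenic mice, with a fitted change of 1.52 (log2, limma adjusted p = 0.175). Mcpt2, Mcpt4, Tpsab1, Tpsb2 and Ms4a2 were detected on no array. Cpa3, Fcer1a and Gata2, detected on too few arrays to test and named after their values were seen, were highest in transgenic mouse 1. They were at 9.22, 9.11 and 8.17 there and at 5.03, 5.82 and 5.86 in transgenic mouse 2. The list's summed level was 9.69 and 9.37 in control mice 1 and 2 and 12.30 and 9.33 in transgenic mice 1 and 2. The part of mast cells in the Tph1 values was not tested.

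**Figure D2:**
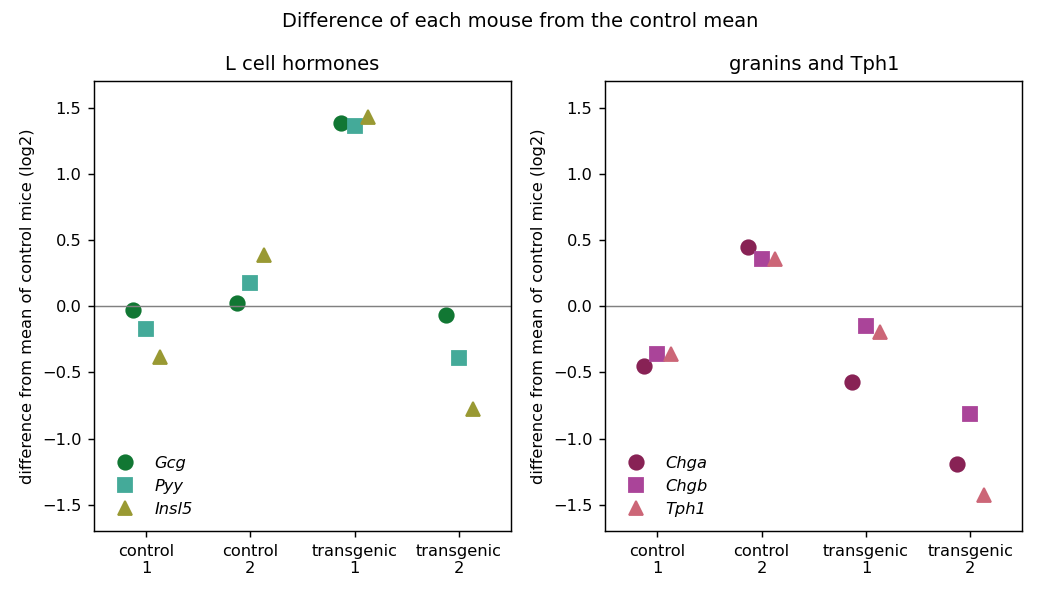
Difference of each mouse (x axis) from the mean of the 2 control mice (log2, y axis), for the L cell hormones on the left and the granins with Tph1 on the right, 1 point per gene and mouse. Gcg, Pyy and Insl5 meet at 1.36 to 1.43 in transgenic mouse 1, and Chga, Chgb and Tph1 are lowest in transgenic mouse 2, at -0.81 to -1.42.

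Neurotensin and somatostatin showed neither pattern. Nts (ILMN_2929906), a peptide of N cells and of enteric neurons, had raw signals of 196.5 and 265 in control mouse 1, 360.4 and 275 in control mouse 2, 167 and 166 for transgenic mouse 1, and 301 and 334 for transgenic mouse 2. It was detected on 4 arrays in all, the fewest the test allows. Its levels were 7.30 and 7.92 in control mice and 6.89 and 7.68 in transgenic mice, so the lowest mouse was the one in which the L cell hormones were highest. The change was -0.32 ± 0.36 (SE; 95% interval -1.26 to 0.62; limma, adjusted p = 0.814). It was 0.07 without transgenic mouse 1, -0.71 without transgenic mouse 2, -0.63 without control mouse 1, -0.01 without control mouse 2, -0.05 with background from all rows, -0.20 with median scaling and -0.18 with array 1 alone. The Nts and Chga rows have detection values off the whole steps of the other 8 rows, as averages of probes would, a reading that the sources used here do not state.

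Sst (ILMN_2729826), the inhibitor of other gut hormones, had the smallest change of the 10. Its raw signals were 351 and 417 in control mouse 1, 427 and 353 in control mouse 2, 293 and 349 for transgenic mouse 1, and 517 and 460.0 for transgenic mouse 2. Its levels were 8.26 and 8.31 in control mice and 8.27 and 8.45 in transgenic mice. The change was 0.08 ± 0.17 (SE; 95% interval -0.37 to 0.52; limma, adjusted p = 0.906). That interval leaves room for changes of up to 1.44-fold. Its sign turned with array 2 alone and without transgenic mouse 2 (-0.06 and -0.01), and it was 0.02 with background from all rows, 0.16 with median scaling, 0.22 with array 1 alone and 0.17 without transgenic mouse 1.

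Over all 10 genes limma called 0 between genotypes, with adjusted p between 0.229 and 0.914. Of the 6982 rows tested 0.129% were called, all of them higher. At an unadjusted p under 0.05 there were 2 of the 10 (Sct and Cck), against 8.41% of all rows. Cck counts here although it entered the test through the transgenic arrays alone. Over the 5976 rows detected on all 8 arrays, 428 had such a p, Sct alone among the 10 genes. The median change was 0.20 over the 10 genes and -0.01 over all rows, with 6 positive and 4 negative, where 48.5% of all rows were positive. With the 8 arrays in the fit and the mouse as a random effect, Sct and Cck were called (limma, adjusted p = 0.0454 and 0.0192). So were 185 of the 6982 rows tested, these 2 included, and Cck entered that fit too through the transgenic arrays alone. That fit takes degrees of freedom from repeat arrays of the same mice.

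**Figure D3:**
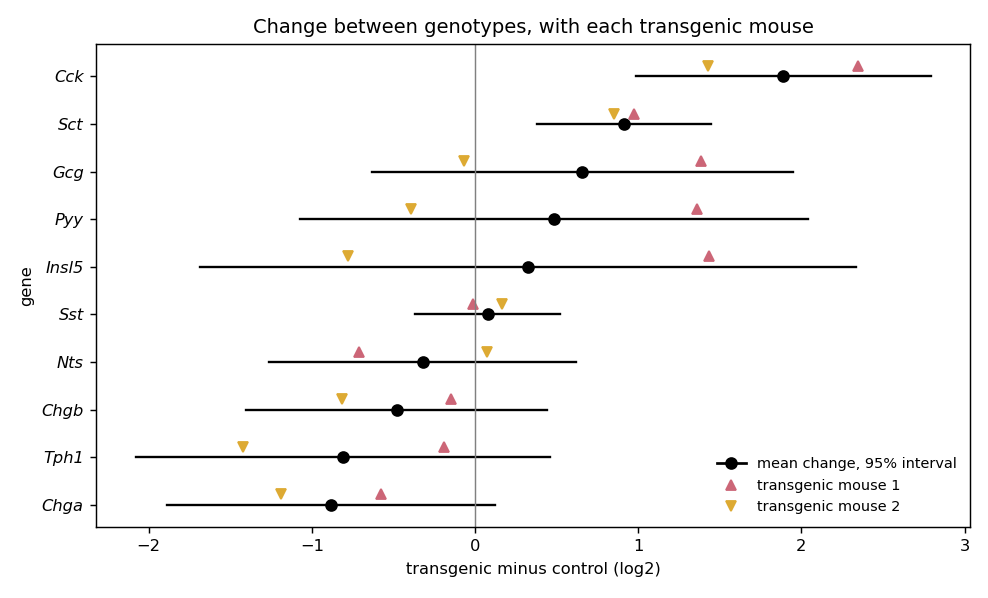
Change from control to transgenic mice (log2, x axis) for each gene (y axis): black points with bars are the mean change and its 95% interval from limma, and triangles are transgenic mouse 1 (up) and mouse 2 (down), each against the control mean. Only the bars of Sct and of Cck, which entered the test through the transgenic arrays alone, lie clear of 0. The 2 triangles fall on opposite sides of 0 for Gcg, Pyy, Insl5, Nts and Sst.

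The spread between mice of one genotype was wide in these genes. The transgenic mice were over 2-fold apart for 4 of the 10 (Gcg, Pyy, Insl5 and Tph1), against 8.87% of all rows, and the control mice for 0, against 1.96%. The median difference between transgenic mice was 0.85 over the 10 genes and 0.30 over all rows. Between control mice it was 0.50 and 0.15. Repeat arrays of a mouse differed by a median of 0.15 and at most 0.98. Control mouse 2 was above control mouse 1 for 9 of the 10, Sct being the exception. Transgenic mouse 1 was above transgenic mouse 2 for 8, all but Nts and Sst. The share of all rows with these orders was not counted. Of the 4 mice, transgenic mouse 1 was highest for 5 of the 10 genes, against 38.2% of all rows. Control mouse 2 was highest for 4, against 27.4%.

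The transcription factors that make enteroendocrine cells were mostly too dim to test: of 25 on the array, 7 were tested and 15, among them Neurod1, Pax4, Pax6 and Nkx2-2, were detected on no array. Neurog3, which commits progenitors to this lineage, was at 7.06 and 6.87 in control mice and at 8.68 and 7.73 in transgenic mice. Its change was 1.24 ± 0.35 (SE; limma, adjusted p = 0.460), with both transgenic mice above both control mice. Insm1, a repressor that acts after Neurog3, had levels of 6.71 and 6.93 in control mice and 7.97 and 6.95 in transgenic mice. Its change was 0.64 ± 0.37 (SE, adjusted p = 0.681), with transgenic mouse 2 level with the higher control mouse. Hhex, a D cell factor of the pancreas, had a change of 0.24 and Neurod2 one of -0.32. Both missed the threshold (adjusted p = 0.728 and 0.685). The list of 7 had 0 called, 6 positive changes and a median of 0.16, with 0.44 for transgenic mouse 1 taken singly and -0.18 for transgenic mouse 2.

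Among other gut peptides, Tac1, which encodes substance P and is made by enterochromaffin cells, was at 7.22 and 8.36 in control mice and 7.76 and 6.74 in transgenic mice, highest and lowest in the same mice as Chga, Chgb and Tph1. Its change was -0.54 ± 0.52 (SE; limma, adjusted p = 0.792). Ppy, pancreatic polypeptide, was at 7.03 and 8.22 in control mice and 9.47 and 7.33 in transgenic mice, highest in transgenic mouse 1 like Pyy. The 2 genes are neighbours of related sequence, and cross-hybridisation of their probes was not tested. Its change was 0.78 ± 0.81 (SE; adjusted p = 0.803). Guca2a, the guanylin precursor of colonocytes, and Iapp, amylin, had changes of -0.21 and -0.10 (adjusted p = 0.814 and 0.869). Of 17 such genes on the array 5 were tested, 0 were called, and 10 were detected on no array.

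Genes of the secretory granule and of amine synthesis gave 12 tested of 29 on the array, 0 called, 4 positive and 8 negative, with a median of -0.27. Ddc, which makes serotonin from the product of Tph1, was at 10.07 and 10.51 in control mice and 9.74 in both transgenic mice, a change of -0.55 ± 0.21 (SE; limma, adjusted p = 0.595). The vesicle proteins Syp and Rab3a had changes of -0.38 and -0.36 (adjusted p = 0.690 and 0.676). Ddc, Syp and Rab3a were lower in both transgenic mice than in either control mouse. Of the 12 genes, 4 lay so and 2 the opposite way, against 20.9% and 21.7% of all rows. Stx1a, a membrane fusion protein, was higher in both, at 7.52 and 7.27 in control mice and 8.47 and 7.85 in transgenic mice (0.76 ± 0.27, SE, adjusted p = 0.550). The granule proteins Scg5 and Resp18, named after their values were seen, were at 6.07 and 7.04 and at 6.72 and 7.78 in control mice and at 6.98 and 5.68 and at 7.50 and 6.02 in transgenic mice. Taken singly, transgenic mouse 1 had a list median of 0.21 and transgenic mouse 2 one of -0.39. Scg2, Scg3, Vgf, Pcsk1 and the amine transporters Slc18a1 and Slc18a2 were detected on no array.

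Receptors by which these cells sense the gut contents were tested for 4 of 17 genes on the array. Ffar2, a short-chain fatty acid receptor of L cells, was at 11.27 and 11.24 in control mice and 12.36 and 11.16 in transgenic mice, so transgenic mouse 1 stood apart as it did for Gcg. Its change was 0.51 ± 0.42 (SE; limma, adjusted p = 0.763). The long-chain fatty acid receptor Ffar4, the receptor Gpr35 and the glucose transporter Slc5a1 had changes of -0.21, -0.16 and -0.01 (adjusted p = 0.824, 0.825 and 0.988). On the receiving side, 5 of 34 genes were tested and 28 were detected on no array, among them Glp1r, Npy2r, Rxfp4, Sctr, Cckar, Ntsr1 and all 5 somatostatin receptors. Npy1r, a receptor for peptide YY, was at 6.39 and 6.79 in control mice and 6.13 and 5.21 in transgenic mice (-0.91 ± 0.36, SE, adjusted p = 0.600). Dpp4, the protease that trims GLP-1 and peptide YY, had a change of 0.53, Ramp1 one of 0.10 and the serotonin transporter Slc6a4 one of -0.33 (adjusted p = 0.703, 0.968 and 0.739).

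**Figure D4:**
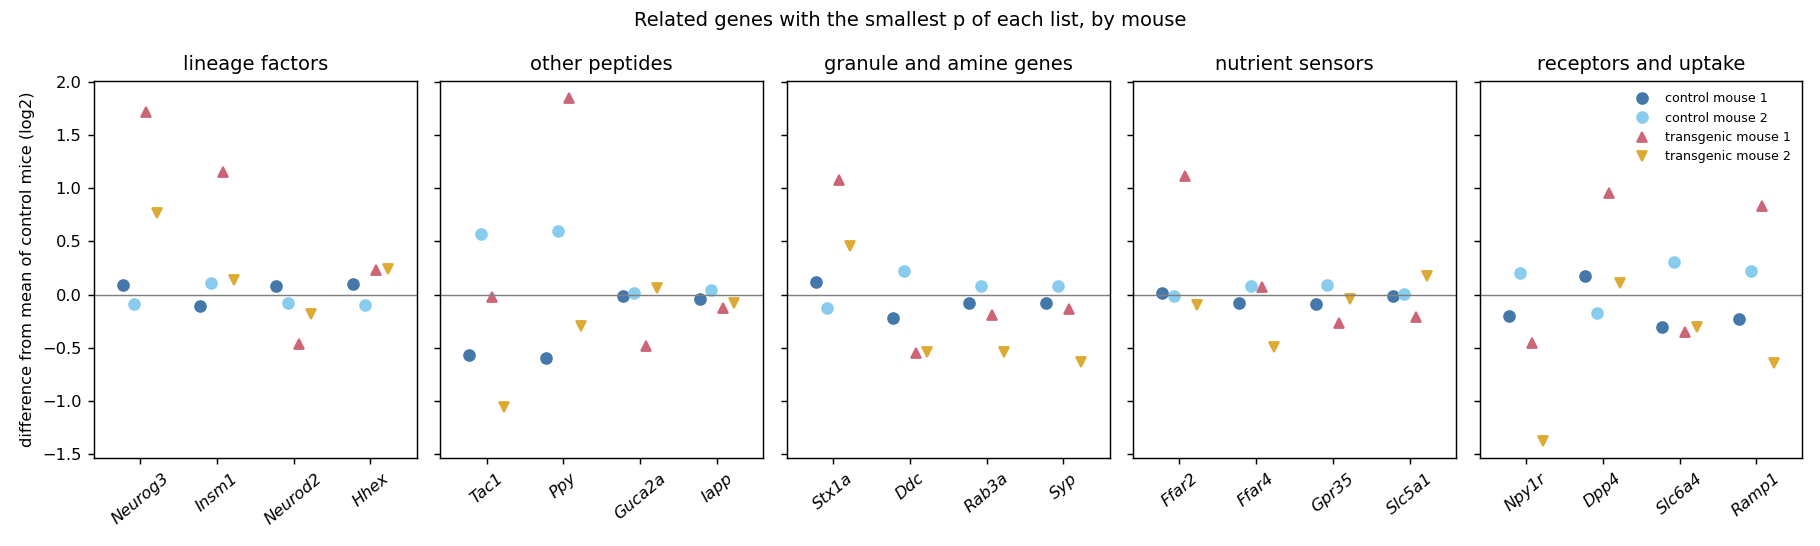
Difference of each mouse from the control mean (log2, y axis) for up to 4 genes of each related list (x axis), those with the smallest p; circles are control mice and triangles transgenic mice. Neurog3, Insm1, Ppy, Stx1a, Ffar2, Dpp4 and Ramp1 are highest in transgenic mouse 1. Tac1, Rab3a, Syp, Ffar4 and Npy1r are highest in control mouse 2 and lowest in transgenic mouse 2.

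Taking the 5 related lists together, 33 of 122 genes on the array were tested and limma called 0, with 2 at an unadjusted p under 0.05 (Neurog3 and Stx1a). For 5 of the 33 the transgenic mice were both above the control mice, and for 7 both below, where 21.7% and 20.9% of all rows do so. The combination of Chga, Chgb and Tph1, highest in control mouse 2 and lowest in transgenic mouse 2, was shared by 7 of the 33 against 10.4% of all rows: Tac1, Scg5, Resp18, Syp, Rab3a, Ffar4 and Npy1r. The combination of Gcg, Pyy and Insl5, highest in transgenic mouse 1 and lowest in transgenic mouse 2, was shared by 9, against 14.1% of all rows.

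Markers of other cells also differed between these mice. Colonocyte markers had a summed level of 16.60 to 16.68 in control mice, 15.85 for transgenic mouse 1 and 16.81 for transgenic mouse 2, with median differences from the control mean of -1.28 for transgenic mouse 1 and 0.17 for transgenic mouse 2. The terminal keratin Krt20 and the water channel Aqp8, named after their values were seen, were at 11.08 and 8.91 for transgenic mouse 1 but at 13.51 and 11.31 for transgenic mouse 2. Krt8, Krt19 and Cdx2, the brightest tested, differed from the control mean by -0.46, -1.21 and 0.01 for transgenic mouse 1. For transgenic mouse 2 they differed by 0.23, 0.11 and 0.46. Cdx2 was lowest in control mouse 2. The mouse with the highest L cell hormones thus had the lowest summed colonocyte level, though not the lowest level of every marker. The part of one in the other was not tested. Of 9 tuft cell markers on the array 7 were tested. The summed level of the list was 11.01 to 11.02 in control mice and 12.43 to 13.23 in transgenic mice. All 7 tested were above both control mice in both transgenic mice, where 21.7% of all rows tested show this. The 3 brightest, Alox5ap, Avil and Plcg2, had changes of 2.16, 2.20 and 1.3 (limma, adjusted p = 0.159, 0.191 and 0.408). This is the direction of Sct, and of Cck, which entered the test through the transgenic arrays alone and had to differ. The part of tuft cells in the Sct and Cck values was not tested. Il25 was detected on no array.

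Enteric neurons also make Nts, Sst, Cck and granins. Of 14 neuron and glia markers on the array 13, among them Elavl4, Uchl1, Tubb3, Ret, Prph, Stmn2 and S100b, were detected on no array, and the other, Chat, is also a tuft cell gene. Their summed level was 8.93 to 8.95 in control mice and 9.27 to 9.44 in transgenic mice. Most of that difference came from Chat, at 6.59 and 6.57 in control mice and 8.16 and 7.72 in transgenic mice. The other levels in the sum are of undetected rows. Of 11 pancreas markers, Ins2, Cpa1, Cpb1, Prss2, Cela2a, Cela3b and Ctrb1 were detected on no array, and Cela1, Clps, Ppy and Iapp were tested. Cela1 was at 13.02 and 13.95 in control mice and 12.52 and 12.05 in transgenic mice, and Clps at 11.64 and 12.25 and at 12.15 and 10.28. The summed level of the list was 13.54 to 14.39 in control mice and 12.55 to 13.49 in transgenic mice. Smooth muscle markers were detected for 2 of 8 genes, of which Smtn was tested (7.97 and 7.68 in control mice, 8.97 and 8.48 in transgenic mice), with summed levels of 8.79 to 8.96 and 9.22 to 9.59.

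The position along the gut matters for these hormones, since Insl5 and Pyy are more abundant distally. Of 9 distal colon markers 4 were tested. Their summed level was 15.56 and 16.01 in control mice 1 and 2 and 15.40 and 15.11 in transgenic mice 1 and 2. The 4 distal genes did not share an order of the mice. The patterning gene Hoxd10 was at 7.29 and 8.15 in control mice and 7.77 and 6.48 in transgenic mice, highest in control mouse 2 and lowest in transgenic mouse 2 like the granins. Sycn was at 14.22 and 14.80 in control mice and 14.91 and 14.57 in transgenic mice, highest in transgenic mouse 1 and lowest in control mouse 1. Wfdc2 was at 14.82 and 15.18 in control mice and 13.55 and 13.39 in transgenic mice (limma, adjusted p = 0.138). Hoxa13, named after its values were seen, ranged from 6.13 in transgenic mouse 1 to 6.43 in control mouse 1.

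Of 8 proximal colon markers 6 were tested. Their median difference from the control mean was -1.08 for transgenic mouse 1 and -0.15 for transgenic mouse 2, and 4 of the 6 had both transgenic mice under the control range, against 20.9% of all rows. Cyp2c55 was at 14.53 and 14.50 in control mice and 11.07 and 14.41 in transgenic mice, and Hoxb7 at 10.54 and 10.64 and at 9.75 and 10.34. Ang4, which carries most of the summed level, was at 15.64 and 15.72 in control mice and 15.91 and 15.59 in transgenic mice. That sum was 16.26 to 16.31 in control mice and 16 to 16.20 in transgenic mice. Transgenic mouse 1, with the highest L cell hormones, thus had the lowest levels of 5 of these 6 genes. The same mouse was lowest for 33.5% of all rows tested. Small intestine markers, of which 5 of 11 were tested, summed to 10.83 to 11.37 in control mice and 10.79 to 11.33 in transgenic mice. Among the tested, Lyz1 was at 6.94 and 8.18 in control mice and 8.42 and 8.71 in transgenic mice, and Rbp2 at 7.45 and 8.08 and at 6.54 and 7.30. Fabp2, Apoa4, Apoa1, Mttp, Gata4 and Slc10a2 were detected on no array. The labels do not give the stretch of colon sampled, and the part of its position in the hormone values was not tested.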

How the data were processed

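Total RNA from colonic mucosa was hybridised to Illumina BeadChips, 2 arrays for each of 4 mice. The deposited intensity table holds a linear signal for every row on every array, before any normalization. It also gives a deposited detection value as a fraction, a p per the file headers, which rises with the signal and was read as 1 minus the detection p. The log2 values of the series matrix were quantile normalized by the authors, as a comparison with the signals shows. BeadStudio and Partek are named without version, per the submitters' processing notes.

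Background was corrected by normexp (limma 3.58.1, R 4.3.3, offset 16). Its mean and SD were inferred from the detection p of the 13920 rows whose values are whole multiples of 1/798, and quantile normalization and log2 followed. This restriction was set after the file was examined. The offset understates changes of dim rows. Rows detected at p under 0.01 on at least 4 of 8 arrays were tested. Repeat arrays were averaged per mouse, and lmFit and eBayes compared 2 with 2 mice, two-sided, with Benjamini-Hochberg adjustment over 6982 rows and a threshold of 0.05. Where a genotype was detected on no array, its level was replaced on each array by the lowest level of a detected whole-step row, or by its own where higher, and the fold is given as "at least". The p-values rest on the spread between 2 mice per genotype, which eBayes moderates with the spread of all rows tested. The number of mice limits the precision. On an array 6646 to 7053 rows were detected.

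Genes were named through the platform annotation. A gene outside the 10 is represented by its brightest tested row. Named are all 10 genes, the 4 with the smallest p in each related list, and the 3 brightest tested genes of each marker list (fewer where fewer were tested); any other gene with values is said to be named after they were seen. A summed level is log2 of the sum of the linear levels of a list. The genes and lists were chosen with earlier results of these data known. The fit was tested on simulated data. Alternatives changed the background rows, the scaling, the detection filter, the arrays used, the treatment of repeat arrays (statmod 1.5.0) and the mice.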

Additional observations from a re-analysis of the deposited data

How the results depend on the processing

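Of the 10 genes, limma called 0 under the reported processing and under 10 of 12 alternatives; with the mouse as a random effect over 8 arrays it called 2, and with each mouse left out 0 to 3 (Gcg, Pyy and Cck without transgenic mouse 2). Over all rows it called 9, against 0 with background from all rows (555 at an unadjusted p under 0.05), 2 over all rows unfiltered, 1 over rows detected on every array, 185 with the random effect, and 0 to 850 with each mouse left out. In the related lists it called 0, against 1 with the random effect (Neurog3) and 0 to 5 with each mouse left out. Of 117 changes recomputed for the 10 genes, 105 kept sign and call, 5 became calls and 7 turned sign: Sst with array 2 alone (-0.064), and the rest with a mouse left out, over ranges of -0.068 to 1.38 for Gcg, -0.39 to 1.36 for Pyy, -0.78 to 1.43 for Insl5, -0.71 to 0.072 for Nts and -0.013 to 0.17 for Sst. Leaving out a mouse leaves the spread to fewer mice; the cause of the other shifts was not tested. The count of genes over 2-fold apart between transgenic mice was 3 to 4 under the other background and scaling settings. Dim rows (Cck, Tph1, Nts, Chga) moved most with the background, and signal over background limits their values. No paired analysis was possible because the replicate numbers in the labels count the arrays of 1 mouse and pair no mice across genotypes.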
